A study of Homo sapiens with 3 samples.

Results

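Methylation of histone H3 at lysine K4 (H3K4) was examined at the level of the genes that write and erase it. The 10 genes are the methyltransferases KMT2A, KMT2B, KMT2C, KMT2D, SETD1A and SETD1B, their shared subunit WDR5, and the demethylases KDM1A, KDM5A and KDM5B. They were listed by name and found by their GENCODE symbols among the 58051 genes of the counts, and all 10 were present. The rule itself used no measured value, although earlier results of these data were known when the list was made.

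RNA-seq was performed on total RNA from untreated, wild-type H9 cells, after removal of ribosomal RNA, in 3 replicates of a single condition. H9 is a widely used human embryonic stem cell (hESC) line, here grown on Vitronectin-XF, and all values describe this line only. The labels do not say whether the replicates came from separate cultures, so the spread between them may be technical. The authors deposited read counts per gene, with totals of 10390984, 12024802 and 8655155 reads in replicates 1, 2 and 3. All 5 pluripotency markers examined were highly expressed, between 275 and 2576 TPM, a measure of level per length of gene that has the same total in every replicate. Among 10 markers of neural, endoderm, mesoderm, trophectoderm and fibroblast cells, the highest were COL1A2 at 25.6 TPM and MIXL1 at 22.3 TPM, and CDX2 had no read, which allows up to 3 counts per library. With the canonical transcript as gene length, an alternative described below, COL1A2 was at 33.0 TPM and in the high class defined there. With 1 condition no groups can be compared, and an exact two-sided sign-flip permutation test over 3 replicates cannot go below p = 0.25, so values are given with their SD and no test. As in any bulk RNA, the share of cells that express a gene and the amount of RNA per cell cannot be told apart.

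H3K4 methylation marks active regulatory DNA. SETD1A, SETD1B, KMT2A and KMT2B are best known for trimethylation at promoters, KMT2B also at the poised promoters of developmental genes in embryonic stem cells, and KMT2C and KMT2D for monomethylation at enhancers. Each of these enzymes works in a complex of the COMPASS type, held together by WDR5, RBBP5, ASH2L and DPY30. KDM1A, an amine oxidase of the CoREST complex, removes monomethyl and dimethyl groups, whereas KDM5A and KDM5B are JmjC dioxygenases that remove trimethyl and dimethyl groups.

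KMT2A, KMT2B and the SETD1 subunit CXXC1 carry a CXXC domain, which binds unmethylated CpG, and the starts of the genes themselves were examined for their base composition. RefSeq promoters (GRCh38.p14) were matched for 9 of the 10 genes and not for SETD1B, and 8 of these have a single listed start. In the 250 bases before the RefSeq start, these 8 genes had between 18 CpG (KDM5A) and 48 CpG (KMT2C), and their median was 25, against 11 over 35116 promoters. The stretch of KMT2C precedes a RefSeq start that lies 641 bases inside the GENCODE gene, and that of SETD1A a start 460 bases inside, so that both overlap GENCODE exons of their own gene. Their median GC content was 65.4%, against 58.0% over all promoters. Each of the 8 held the letters GGGCGG, known as the GC box, on either strand, as did 42.6% of all promoters. None of the 8 held CCAAT, found in 32.0% of all promoters, or TATAAA, found in 10.7%, again on either strand. WDR5 has 4 listed starts, of which 3 held the GC box and none CCAAT, with 9, 23 and 39 CpG, whereas the stretch before the other held CCAAT and no GC box, with 2 CpG and 49.6% GC. A match describes the letters and no binding was measured. The stretch before KDM5A overlaps an exon of CCDC77, which is transcribed in the opposite direction. The stretches of a promoter-type methyltransferase, an enhancer-type methyltransferase and a demethylase are shown for comparison, from 5′ to 3′ on the strand of the gene and without bases that GENCODE assigns to an exon. Capitals mark the GC box on either strand, and adjoining capitals are overlapping or neighbouring boxes. The KMT2B stretch is chr19:35717753-35717972 on the plus strand, with 3 boxes in its 220 bases. The KMT2D stretch is chr12:49060795-49061044 on the minus strand, with 2 boxes in its 250 bases. The KDM5B stretch is chr1:202808488-202808671 on the minus strand, with 3 boxes in its 184 bases.
KMT2B: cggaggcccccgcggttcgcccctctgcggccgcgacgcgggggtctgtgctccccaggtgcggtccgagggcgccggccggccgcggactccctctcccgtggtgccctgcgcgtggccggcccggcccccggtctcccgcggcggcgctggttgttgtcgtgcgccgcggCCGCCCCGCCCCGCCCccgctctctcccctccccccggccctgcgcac
KMT2D: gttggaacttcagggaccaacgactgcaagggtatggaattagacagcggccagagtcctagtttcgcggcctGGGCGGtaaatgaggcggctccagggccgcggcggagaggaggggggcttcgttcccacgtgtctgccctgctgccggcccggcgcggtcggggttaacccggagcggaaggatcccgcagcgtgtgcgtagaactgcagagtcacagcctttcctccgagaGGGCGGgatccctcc
KDM5B: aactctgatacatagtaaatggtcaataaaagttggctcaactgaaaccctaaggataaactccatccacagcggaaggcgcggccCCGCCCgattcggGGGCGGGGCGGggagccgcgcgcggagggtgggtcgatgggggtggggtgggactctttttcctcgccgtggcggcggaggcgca

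All 10 genes were expressed in H9 cells. Each had between 611 and 5221 reads in every replicate, so that counting alone gives a coefficient of variation (CV) of 1.50% to 3.76%. Together they held 0.200%, 0.187% and 0.184% of the counted reads in replicates 1, 2 and 3. To compare genes, counts were divided by gene length and scaled to TPM. Gene length was taken as the union of all annotated exons, and, as an alternative chosen after seeing the data, as the canonical transcript (canonical TPM). The threshold of 0.01 TPM for nonexpressed genes and the division of the rest into 3 quantiles, low, medium and high, followed the methods of the study. Quantiles were set here over protein-coding genes only, which is not stated in those methods, with boundaries of 3.35 and 27.0 TPM. With all genes classified all 10 members were high, but the share of all genes in that class was not computed, so this number has no background. The number of members in the high class was 8 of 10, which compares with 28.8% of 19629 protein-coding genes. With canonical lengths the number was 7, beside 28.8% of protein-coding genes; the boundary was then 26.4 TPM, KMT2A lay just above it, and KMT2B and SETD1B lay below it. No member was in the low class or nonexpressed. The median over the members was 42.6 TPM and that over all protein-coding genes was 7.10 TPM.

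**Figure D1:**
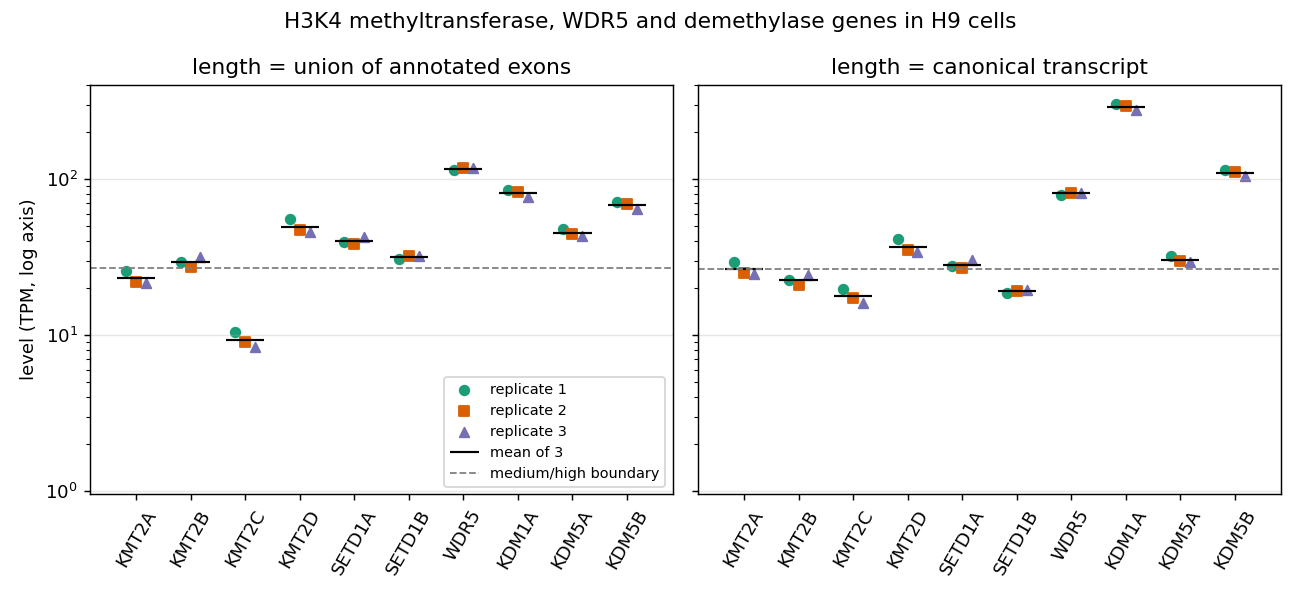
Level of each gene in each of the 3 replicates (points, TPM on a log axis) with the mean (bar), by exon union (left) and canonical transcript (right); the dashed line is the boundary of the high class. By exon union WDR5 is highest at 117 TPM and KMT2C lowest at 9.30 TPM, whereas by canonical transcript KDM1A is highest at 293 TPM.

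Among the methyltransferases, KMT2D had the highest level. KMT2D (ENSG00000167548, chromosome 12, 49018975 to 49060794, minus strand; 55 exons in the canonical transcript), the gene mutated in most cases of Kabuki syndrome, was at 55.8, 47.5 and 45.7 TPM in replicates 1, 2 and 3, a mean of 49.7 ± 5.40 TPM (SD, n = 3). Replicate 1 was the high one. Its paralog KMT2C (ENSG00000055609, chromosome 7, 152134922 to 152436644, minus strand; 59 exons) had 10.4, 9.07 and 8.40 TPM, a mean of 9.30 ± 1.04 TPM, in the medium class. Reads of KMT2C are uncertain because parts of the gene have near-identical copies elsewhere in the genome, and the counting of reads with several matches is not given in the sources used here. KMT2D exceeded KMT2C in all 3 replicates, by 2.42 ± 0.03 on the log2 scale (SD, n = 3), or 5.34-fold. The size of this difference depended on length, since the exon union of KMT2C (53322 bases) is 3.16 times its canonical transcript (16860 bases). With canonical lengths, the means were 36.9 ± 3.92 TPM for KMT2D and 17.8 ± 1.93 TPM for KMT2C, a log2 difference of 1.06 ± 0.03, or 2.08-fold. Of the exon bases of KMT2D, 3.65% are shared with other genes. Of these, 661 bases lie in a protein-coding gene model on the same strand that is not among the counted genes. Another 267 bases are shared with DDN-AS1 on the opposite strand, which had 43, 59 and 25 reads.

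SETD1A and SETD1B, which encode the catalytic subunits of alternative SETD1 complexes, were both in the high class, with SETD1A above SETD1B. SETD1A (ENSG00000099381, chromosome 16, 30957294 to 30984664, plus strand; 19 exons) was at 39.4, 38.5 and 42.8 TPM, with a mean of 40.2 ± 2.27 TPM. SETD1B (ENSG00000139718, chromosome 12, 121804009 to 121832656, plus strand; 17 exons) was at 30.7, 31.9 and 32.2 TPM, with a mean of 31.6 ± 0.787 TPM. SETD1A was the higher of the pair in every replicate. The log2 ratio of SETD1B to SETD1A was -0.36, -0.27 and -0.41, with a mean of -0.35 ± 0.07, and SETD1A was thus 1.27-fold higher. With canonical lengths, SETD1A was 1.48-fold higher. SETD1B is the only member whose exon union and canonical transcript are the same, at 8557 bases.

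KMT2A and KMT2B, the mammalian relatives of Drosophila Trithorax, could not be put in order. KMT2A (ENSG00000118058, chromosome 11, 118436456 to 118526832, plus strand; 36 exons), rearranged in acute leukaemias, was at 25.8, 22.0 and 21.6 TPM, with a mean of 23.1 ± 2.32 TPM. KMT2B (ENSG00000272333, chromosome 19, 35717973 to 35738880, plus strand; 37 exons) was at 29.3, 27.5 and 31.7 TPM, with a mean of 29.5 ± 2.12 TPM. By exon union, KMT2B was the higher in all 3 replicates, with log2 ratios to KMT2A of 0.18, 0.32 and 0.55 and a mean of 0.35 ± 0.19. The order was reversed with canonical lengths, where KMT2A was at 26.5 ± 2.59 TPM and KMT2B at 22.7 ± 1.71 TPM, a log2 ratio of -0.22 ± 0.19. Of the exon bases of KMT2A, 19.3% are shared with other genes, of which 5755 bases lie in a protein-coding gene model on the same strand that is not among the counted genes. With shared bases taken out of the length, the log2 ratio was 0.05, smaller than its SD of 0.19. Reads on those bases stayed in the counts, so this value does not exclude the shared region. KMT2B shares 80 bases, 0.740% of its exons, with IGFLR1.

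As a share of the summed level of the 6 methyltransferases, KMT2D held 27.1 ± 2.05%, SETD1A 21.9 ± 1.45%, SETD1B 17.3 ± 1.08%, KMT2B 16.1 ± 1.13%, KMT2A 12.6 ± 0.821% and KMT2C 5.07 ± 0.428% (SD, n = 3). With canonical lengths, KMT2D was still first with 24.4 ± 1.56%. KMT2C was last on the mean with 11.7 ± 0.861%, but did not differ beyond the spread from SETD1B with 12.6 ± 0.910%. Summed by pair, SETD1A and SETD1B had 71.8 ± 2.72 TPM, KMT2C and KMT2D 59.0 ± 6.43 TPM, and KMT2A and KMT2B 52.6 ± 2.89 TPM. With canonical lengths these sums were 47.4 ± 2.05, 54.7 ± 5.83 and 49.1 ± 2.88 TPM. The SETD1 pair, highest by exon union in all 3 replicates, had the lowest mean with canonical lengths. It was then above KMT2A and KMT2B in 2 of 3 replicates, and the sums of these 2 pairs did not differ beyond their spread. The sum of KMT2C and KMT2D was the highest in all 3 replicates with canonical lengths, at 61.3, 52.5 and 50.3 TPM.

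WDR5, the WD40 subunit that anchors the catalytic subunits, had the highest level of the 10 genes by exon union and the smallest spread. WDR5 (ENSG00000196363, chromosome 9, 134135365 to 134159968, plus strand; 14 exons) was at 115.1, 117.3 and 117.5 TPM, a mean of 117 ± 1.33 TPM that exceeded the level of 93.1% of protein-coding genes. The CV of its CPM (counts scaled to the library total) was 2.21%, below the 3.00% that counting alone gives. Its level was nonetheless under the sum of the 6 methyltransferases, 183 ± 7.58 TPM, with log2 ratios of -0.73, -0.59 and -0.63 and a mean of -0.65 ± 0.07. With canonical lengths the mean ratio was -0.90 ± 0.09. The divergent transcript WDR5-DT overlaps 408 exon bases of WDR5 and had 3, 4 and 3 reads. The intronless copy WDR5B was at 5.55 ± 0.281 TPM.

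KDM1A, also known as LSD1, was the highest demethylase. KDM1A (ENSG00000004487, chromosome 1, 23019443 to 23083689, plus strand; 21 exons) was at 85.6, 82.3 and 77.3 TPM, with a mean of 81.8 ± 4.16 TPM. Among the members its level depended most on length, as its exon union of 18325 bases is 5.94 times its canonical transcript of 3085 bases. With canonical lengths it was at 306, 294 and 278 TPM, with a mean of 293 ± 13.9 TPM, above 97.6% of protein-coding genes. KDM1A shares no exon base with another gene.

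Both KDM5 genes were in the high class, with KDM5B above KDM5A. KDM5B (ENSG00000117139, chromosome 1, 202724495 to 202808487, minus strand; 27 exons) had the most reads of the 10 genes, with 4603, 5221 and 3561 in replicates 1, 2 and 3. Its level was 71.0, 69.3 and 64.4 TPM, with a mean of 68.2 ± 3.41 TPM. KDM5A (ENSG00000073614, chromosome 12, 280057 to 389320, minus strand; 28 exons), first described as a protein that binds retinoblastoma protein, was at 47.7, 44.3 and 43.0 TPM, with a mean of 45.0 ± 2.43 TPM. KDM5B was the higher in all 3 replicates, by 0.60 ± 0.04 on the log2 scale, or 1.52-fold. With canonical lengths the difference was 1.85 ± 0.04, or 3.61-fold, with means of 110 ± 5.10 and 30.5 ± 1.56 TPM.

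Summed over the 3 genes, the demethylases had 204, 196 and 185 TPM, with a mean of 195 ± 9.81 TPM. The methyltransferases had 191, 176 and 182 TPM in the same replicates. The log2 ratio of methyltransferases to demethylases was thus -0.09 ± 0.07 by exon union. These sums hold the listed members only, and their ratio depends on that choice. The demethylases KDM5C (57.2 TPM) and KDM1B (11.1 TPM) are not in them, nor are the 7 other methyltransferases or relatives described below. With canonical lengths the sums were 151 ± 7.41 and 434 ± 20.3 TPM and the ratio was -1.52 ± 0.06, so that demethylase RNA exceeded methyltransferase RNA 2.87-fold. KDM1A alone gave 293 TPM of the larger sum.

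The order of the 10 levels by exon union was WDR5, KDM1A, KDM5B, KMT2D, KDM5A, SETD1A, SETD1B, KMT2B, KMT2A and KMT2C. All 9 pairs of neighbours kept this order in 3 of 3 replicates. The closest pair was SETD1B and KMT2B, whose log2 difference of 0.10 was about as large as its SD of 0.10. By canonical transcript the order was KDM1A, KDM5B, WDR5, KMT2D, KDM5A, SETD1A, KMT2A, KMT2B, SETD1B and KMT2C. In that order KDM5A and SETD1A (log2 difference 0.11 ± 0.14), SETD1A and KMT2A (0.10 ± 0.19), and SETD1B and KMT2C (0.11 ± 0.19) did not differ beyond their spread, each keeping the order in 2 of 3 replicates. KDM1A, KDM5B and WDR5 held the 3 highest places, KMT2D the next, and KMT2C the last in both orders.

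The replicates did not vary alike in all 10 genes. In CPM, which compares 1 gene between replicates and needs no length, the members had a median CV of 5.62%, from 2.21% for WDR5 to 10.1% for KMT2C. Over 9386 protein-coding genes with at least 100 reads in each replicate the median was 5.28%, and over the 3271 genes in the range of reads of the members it was 4.07%. These medians depended on the replicates: without replicate 1 they were 2.48%, 4.77% and 3.81%, and without replicate 3 they were 3.67%, 3.35% and 2.48%, so that the members lay below the others in the former case and above them in the latter. SETD1B varied by 3.52%, less than the 3.76% of counting alone, and its chi-square per degree of freedom over the 3 counts was 0.819. In contrast, the chi-square per degree of freedom was 32.1 for KMT2D, 16.0 for KMT2A and 12.6 for KMT2C.

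These 3 genes were highest in replicate 1. KMT2A had 203, 174 and 174 CPM in replicates 1, 2 and 3. KMT2C had 139, 122 and 115 CPM. KMT2D had 356, 304 and 298 CPM. In each of them replicate 1 was over 1.1 times both other replicates, which was the case for 3.25% of the 9386 genes. Replicate 1 was the highest in 6 of the 10 members (29.5% of the 9386 genes), namely these 3 and the 3 demethylases, and replicate 2 in none (31.3%). Replicate 3 was the highest in the other 4, KMT2B, SETD1A, SETD1B and WDR5 (39.1%).

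**Figure D2:**
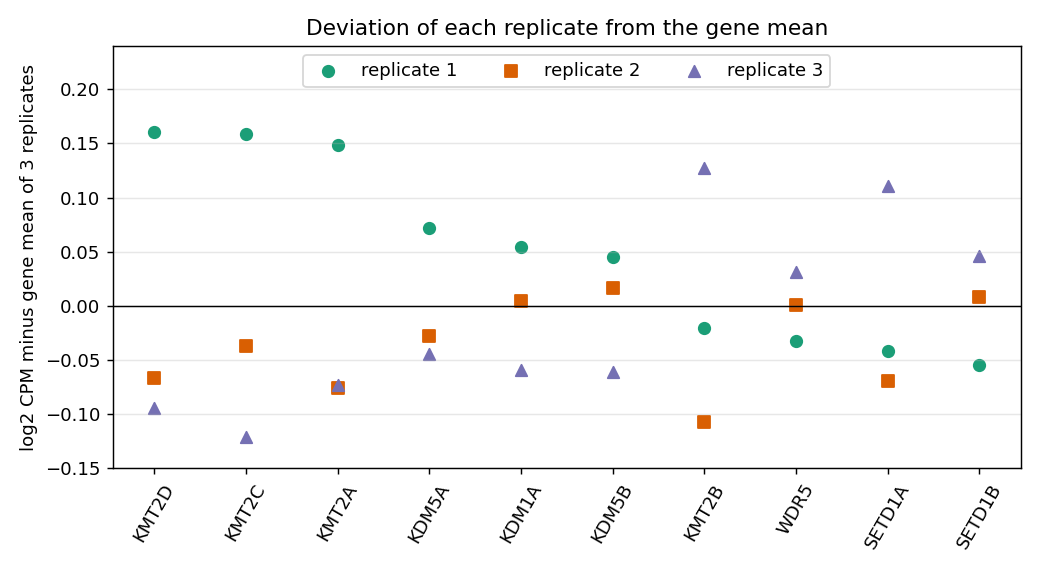
Deviation of log2 CPM of each replicate from the mean of the 3 (points, log2 units) for the 10 genes, in order of replicate 1. Replicate 1 lies 0.16 above the mean for KMT2D and KMT2C and 0.15 for KMT2A, and below it for KMT2B, WDR5, SETD1A and SETD1B.

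KMT2A, KMT2C and KMT2D have the longest coding sequences of the members, with 11916, 14733 and 16611 bases, against at most 8145 bases (KMT2B) in the others. Among the 92 of the 9386 genes with coding sequences of 9000 bases or more, these 3 included, replicate 1 was over 1.1 times both others in 25, or 27.2%. The share was 3.10% of 6198 genes below 2000 bases, 2.45% of those from 2000 to 4000 bases, 1.98% from 4000 to 6000 bases and 8.89% from 6000 to 9000 bases. The log2 difference of replicate 1 from the mean of the others was 0.22 for KMT2A, 0.24 for KMT2C and 0.24 for KMT2D, above the upper quartile of 0.18 in the genes of 9000 bases or more, whose median was 0.09. KMT2B, with the next longest coding sequence, had a difference of -0.03. In bins of canonical transcript length, replicate 1 was over 1.1 times both others in 16.1% of the 248 genes of 12000 bases or more. That bin also holds KMT2A, KMT2C and KMT2D. The share was 3.46% of 781 genes from 8000 to 12000 bases. All of these bins were chosen after seeing the values of the members. Over all 9386 genes, the difference of replicate 1 had a rho of 0.02 with log coding length, -0.21 with exon GC content and 0.11 with log gene span. Across the 10 members the same rho were 0.54, -0.64 and 0.67. Whether length itself had a part in these differences was not tested.

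The difference of replicate 3 from the others was set against the GC content of exons. The 5 members with 39.4% to 43.6% GC (KMT2A, KMT2C, KDM1A, KDM5A and KDM5B) were all lower in replicate 3 than in the mean of replicates 1 and 2, by log2 differences from -0.07 (KDM5A) to -0.19 (KMT2C). Of the 5 members with 57.5% to 63.1% GC, KMT2B (0.19), SETD1A (0.17), SETD1B (0.07) and WDR5 (0.05) were higher and KMT2D (-0.15) was lower. Across the 10 genes, the difference had a Spearman's rho of 0.79 and a Pearson's r of 0.80 with GC content. These are correlations across genes of the same 3 libraries and not across independent samples. Across the 9386 genes rho was 0.42 and r was 0.46, and so positive over the libraries as a whole. Leaving out each member in turn gave rho from 0.72 (without KMT2C, SETD1B or WDR5) to 0.88 (without KMT2A or KMT2D). The genomic span of the gene, on a log scale, had a rho of -0.77 and an r of -0.82 with the same difference across the members, as strong as GC content, and log canonical length a rho of -0.70 and an r of -0.47. Over the 9386 genes these rho were -0.14 and -0.07. Of the 1338 genes with 55% to 60% GC, 24.2% were lower in replicate 3, as KMT2D was, and their median was 0.09. Each of the other members lay on the same side of 0 as the median of the genes in its range of GC content. The parts of GC content, span and length in the spread of the members were not tested.

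**Figure D3:**
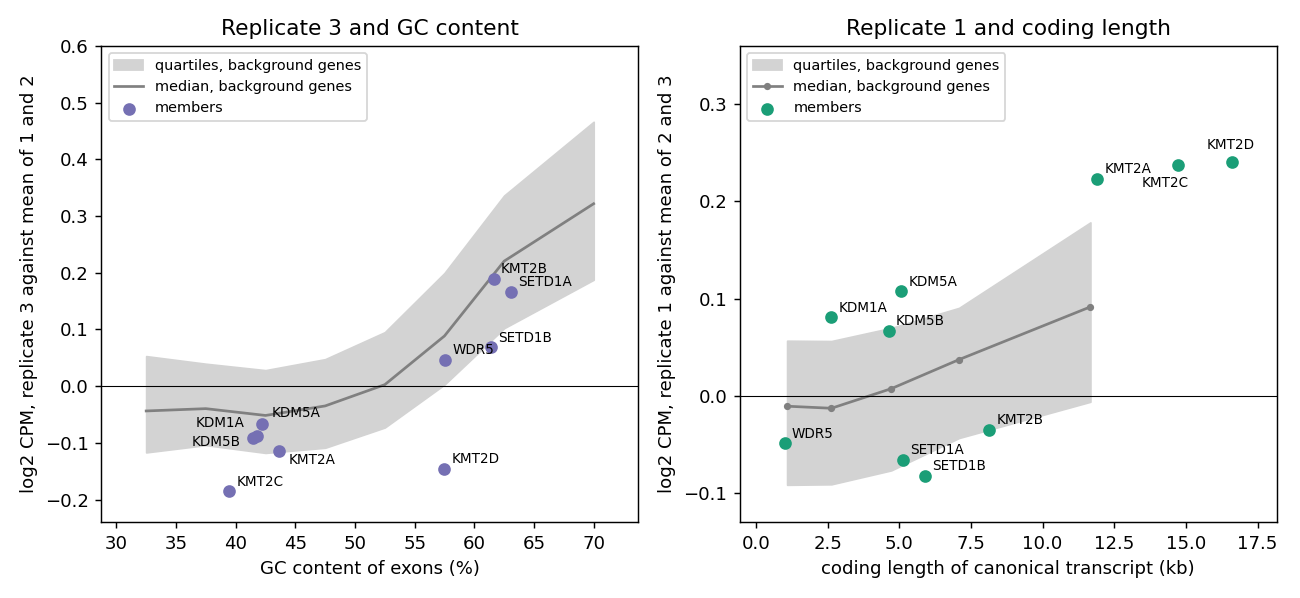
Left, log2 CPM difference of replicate 3 from the mean of replicates 1 and 2 against exon GC content (%); right, that of replicate 1 from the mean of 2 and 3 against coding length (kb); points are the members, and the line and band are the median and quartiles of the 9386 genes in bins. KMT2D lies at -0.15 on the left, below the band, and KMT2A, KMT2C and KMT2D lie at 0.22 to 0.24 on the right, at the longest coding lengths.

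The paralog ratios differed in their spread between replicates. The log2 ratio of KMT2B to KMT2A went from 0.18 in replicate 1 to 0.55 in replicate 3, with an SD of 0.19, for exons of 61.6% and 43.6% GC. KMT2D and KMT2C, at 57.5% and 39.4% GC and both high in replicate 1, had ratios of 2.42, 2.39 and 2.44, with an SD of 0.03. For KDM5B and KDM5A, at 41.4% and 42.2% GC, the ratios were 0.57, 0.64 and 0.58, with an SD of 0.04. For SETD1B and SETD1A, at 61.4% and 63.1% GC, the SD was 0.07. The pairs of KMT2B and KMT2A and of KMT2D and KMT2C both join a GC-rich to an AT-rich gene, and had the largest and the smallest SD of the 4 pairs.

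The other genes of H3K4 methylation were described from lists of known complexes. Of 49 such genes, 27 were in the high, 18 in the medium and 4 in the low class, with a median of 33.8 TPM. By canonical transcript 30 were high, 14 medium and 5 low. Over all protein-coding genes 28.8% were high by either length, the share to set beside each list that follows. The shared COMPASS subunits DPY30 (65.1 ± 4.84 TPM), RBBP5 (51.9 ± 5.30 TPM) and ASH2L (48.7 ± 1.47 TPM) were all high, and all were below WDR5 at 117 TPM. By canonical transcript DPY30 was at 156 TPM and above WDR5 at 81.0 TPM, so that this order depended on length. All 5 subunits particular to the SETD1 complexes or shared by them with others were high, from BOD1L1 at 33.8 ± 1.63 TPM and the CpG-binding CXXC1 at 62.6 ± 3.69 TPM to WDR82 at 145 ± 9.97 TPM and HCFC1 at 186 ± 10.6 TPM. By canonical transcript WDR82 (117 ± 7.64 TPM) and HCFC1 (114 ± 6.72 TPM) differed by less than either SD and could not be put in order.

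Of the 4 partners of KMT2A and KMT2B, 3 were high. PSIP1, the chromatin tether LEDGF, was the highest at 325 ± 24.1 TPM and MEN1, which encodes menin, was at 41.6 ± 2.19 TPM. HCFC2 was low at 1.65 ± 0.412 TPM, whereas its relative HCFC1 was the second highest of the list. Partners of KMT2C and KMT2D had a lower median, 13.8 against 114 TPM, although all 4 were above HCFC2. PAXIP1 was high at 27.3 ± 0.605 TPM, and the H3K27 demethylase KDM6A (14.9 ± 0.349 TPM), NCOA6 (12.7 ± 0.477 TPM) and PAGR1 (4.89 ± 0.527 TPM) were in the medium class. PAXIP1 lay within its SD of the class boundary of 27.0 TPM. By canonical transcript PAXIP1 was at 41.3 TPM and KDM6A at 41.0 TPM, both high, and the medians of the lists were 26.5 and 80.7 TPM. PAGR1 was then low at 2.95 ± 0.330 TPM, within its SD of the boundary of 3.13 TPM.

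None of the 7 other methyltransferases or relatives reached the high class. KMT2E, whose SET domain is thought to be inactive, was at 25.0 ± 0.926 TPM and ASH1L, an H3K36 methyltransferase, at 19.4 ± 0.114 TPM, and both were in the medium class. SMYD1, of heart and skeletal muscle, and PRDM9, of meiotic germ cells, were low, with a single read of SMYD1 in replicate 3 only and 2 reads of PRDM9 in replicate 1 only. By canonical transcript KMT2E was at 26.6 TPM and just inside the high class. Of the other demethylases, KDM5C was high at 57.2 ± 0.780 TPM, between KDM5B and KDM5A, and KDM1B was at 11.1 ± 1.03 TPM, far below its relative KDM1A.

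Among the 9 partners of KDM1A, 7 were high and 2 medium. The corepressor RCOR2 was at 128 ± 6.95 TPM, above its paralogs RCOR1 at 45.2 ± 0.629 TPM and RCOR3 at 10.8 ± 0.779 TPM. The deacetylase HDAC2 was at 118 ± 7.57 TPM, above RCOR2 in replicate 2 and below it in the others. By canonical transcript HDAC2 (112 TPM) was above RCOR2 (81.0 TPM). By either length PHF21A, which binds unmethylated H3K4, was the lowest, at 5.61 ± 0.378 TPM by exon union. Readers of H3K4 methylation were spread over all classes, with 8 of 16 high, 7 medium and 1 low. SPIN1 at 197 ± 5.33 TPM and BPTF, of the NURF remodelling complex, at 122 ± 3.48 TPM were the highest, and TAF3, a TFIID subunit, at 9.43 ± 0.323 TPM and PYGO1 at 1.72 ± 0.453 TPM the lowest by exon union. By canonical transcript ING2 at 12.1 TPM was below TAF3 at 13.4 TPM. PYGO2 was at 57.4 ± 2.80 TPM.

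**Figure D4:**
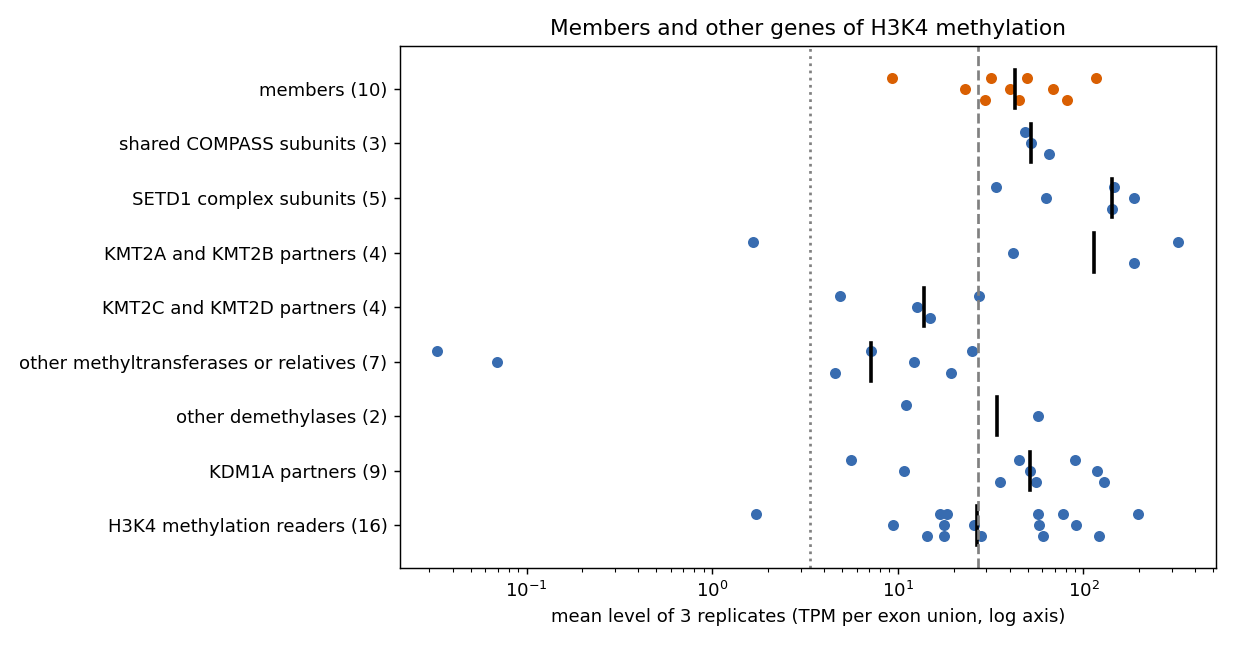
Mean level of the 3 replicates (points, TPM by exon union, log axis) for the 10 members and the lists of other H3K4 methylation genes, with the median of each list (bar) and the class boundaries at 3.35 TPM (dotted) and 27.0 TPM (dashed). All shared COMPASS and SETD1 subunits lie above the upper boundary, and SMYD1 and PRDM9 lie below 0.1 TPM.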

How the data were processed

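Total RNA of 3 untreated H9 replicates was depleted of ribosomal RNA and sequenced. Per the labels, RNA of all replicates was isolated in parallel. The authors trimmed the reads with Trim Galore 0.4.4, aligned them to GRCh38 with TopHat2 2.1.1 and deposited raw counts of reads per gene. Cufflinks 2.2.1 is also named in their processing notes, and its values were not used here. How reads were assigned to genes (tool, annotation, strand) is not given in the sources used here, so reads on overlapping genes cannot be assigned with certainty.

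Identifiers were matched to GENCODE release 44 on the same build (56948 of 58051, or 98.1%, and all 10 members). TPM was computed from counts and exon union length over matched genes, and CPM from total counts. Ratios were taken within each replicate. A count of at least 100 in each replicate was required for the background of replicate differences. Classes were set over 19629 protein-coding genes. Counting error covers the sampling of reads only, as reads copied by PCR do not come from separate molecules. All genes named are members, genes sharing exon bases with them, a near copy, or markers; of the other lists, the 2 highest and 2 lowest genes were named, and RCOR1, PYGO2 and ING2 were named after their values were seen. Members and lists were chosen with earlier results of these data known. Alternatives were other gene lengths, CPM, TMM factors (edgeR 4.0.16), DESeq2 1.42.0 size factors, other class settings and leaving out each replicate; canonical transcripts and exons of protein-coding transcripts were added after seeing the data, as were the bins of coding length and GC content. The computation of TPM, and of a GC trend put into replicate 3, was tested on simulated data. Versions were Python 3.11.15 with pandas 2.3.3, scipy 1.17.1, numpy 2.4.6 and matplotlib 3.10.9, and R 4.3.3.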

Additional observations from a re-analysis of the deposited data

How the results depend on the processing

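With the longest transcript as length, the log2 ratio of KMT2B to KMT2A (0.35) reversed to -0.21, and ratios became 1.05 for KMT2D to KMT2C (2.42), -0.46 for SETD1B to SETD1A (-0.35), 1.82 for KDM5B to KDM5A (0.60), -0.88 for WDR5 to methyltransferases (-0.65) and -0.99 for methyltransferases to demethylases (-0.09). With canonical transcripts these 6 ratios were -0.22, 1.06, -0.57, 1.85, -0.90 and -1.52. With exons of protein-coding transcripts 5 of them moved, to -0.019, 1.65, 1.34, -0.96 and -0.88, and that of SETD1B to SETD1A was -0.41. Without division by length (CPM), which does not compare genes, they were -1.19, 1.35, -0.053, 1.65, -2.98 and -0.16. With shared exon bases taken out of the length only, KMT2B to KMT2A was 0.054, KMT2D to KMT2C 2.46 and WDR5 to methyltransferases -0.54. The cause of each shift is the length itself, since the counts are the same.

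The median level of the members, 42.6 TPM, was 36.2 with the longest transcript, 29.7 with canonical transcripts, 35.3 with exons of protein-coding transcripts and 44.4 without mitochondrial genes. TMM and DESeq2 factors moved 0 of 10 members beyond their SD. The number of members in the high class lay between 6, with a threshold of 1 TPM, and 10, with CPM or all genes classified, and was 8 without each replicate. The share of protein-coding genes in that class was computed only for the main setting and for canonical lengths, and was 28.8% in each.

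Leaving out each replicate gave 0.25 to 0.44 for KMT2B to KMT2A, 2.40 to 2.43 for KMT2D to KMT2C, -0.38 to -0.31 for SETD1B to SETD1A, 0.58 to 0.61 for KDM5B to KDM5A, -0.68 to -0.61 for WDR5 to methyltransferases, -0.12 to -0.06 for methyltransferases to demethylases and 42.1 to 43.2 TPM for the median level. The median CV of the members, 5.62%, was 2.48% without replicate 1, 6.45% without replicate 2 and 3.67% without replicate 3. The Spearman correlation of replicate 3 with GC content across members, 0.79, was 0.61 with the GC content of the longest transcript, 0.95 without replicate 1 and 0.76 without replicate 2. With WDR5 left out it was 0.72. Over protein-coding genes, that correlation was 0.31 with at least 1 count in each replicate in place of 0.42 with at least 100, and the median CV of those with any read was 9.38%. No paired analysis was possible because all samples belong to 1 condition and no groups share replicate numbers. Each member had at least 611 reads in every replicate, whereas a few reads decide the levels of SMYD1 and PRDM9.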
